A study of Homo sapiens with 9 samples.

Results

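The sites described here are 6470 weak peaks of ZNF395-eGFP in 786-O cells that had no counterpart in any other list of the series. They were chosen from the 20034 peaks of the GFP ChIP-seq of tagged 786-O cells as those with a score under 30 that shared no base with a peak of the other 4 lists. These were MYC ChIP in parental 786-O cells, GFP ChIP in parental 786-O cells, GFP ChIP in tagged A498 cells and GFP ChIP in parental A498 cells. The score is the authors' value for each peak and was read as a −log10 of a p or q value. Of the 15776 tagged 786-O peaks with a score under 30, the sites were 41.0%, and of tagged peaks of any score 33.8% met the overlap part of the choice. Scores and overlaps chose the sites, so these counts describe the choice and support nothing else.

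786-O and A498 are established human cell lines from clear cell renal carcinoma. Tagged cells carried an eGFP knock-in within a localisation and affinity purification tag at the end of the ZNF395 gene, parental cells carried no tag, and no drug treatment is named in the labels. Tagged 786-O, parental 786-O, tagged A498 and parental A498 cells were precipitated with the same GFP antibody, and parental 786-O cells also with a MYC antibody. The sources used here do not say whether the tagged cells were a clone or a mixed population. The label fields conflict in places: libraries titled A498 carry 786-O in their cell line field, and the library titled MYC names P300, an acetyltransferase coactivator, as its target. A498 and MYC below mean the libraries so titled. There was 1 library per group, so no difference below has a replicate check, no p-value is given, and the 95% intervals are exact (Clopper-Pearson) binomial intervals for counting error alone, with each peak taken as independent.

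ZNF395 is a zinc finger protein that binds DNA, is induced by low oxygen and has been linked to interferon responses and to renal carcinoma. MYC is a basic helix-loop-helix factor that pairs with MAX at E-box sequences, largely at active promoters of growth and ribosome genes. A ChIP-seq peak is a stretch where the precipitated library holds more reads than its control, and a weak peak is one that passed the caller's threshold by a smaller margin. The lists are in hg19, for which no annotation or sequence was used here, so sites are named by position, and genes, promoters and motifs at them were not analysed here.

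The weak sites without MYC lay towards the bottom of the tagged 786-O list. Their scores ran from 2.01 to 29.9 with a median of 7.41 (quartiles 4.96 and 11.3), against a median of 13.1 for all tagged 786-O peaks. The weak 786-O-only sites with MYC, which met every other condition but overlapped a MYC peak, numbered 6678 and had a median score of 11.4 (quartiles 6.97 and 17.7). Together these made 13148 weak 786-O-only peaks, of which 49.2% had no MYC peak. MYC was the list that removed most weak peaks: 54.2% (53.4 to 54.9) of the 15776 overlapped it. Tagged A498 overlapped 10.2%, parental 786-O 8.49% and parental A498 3.22% of them.

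The part of the tagged 786-O list that was free of other peaks shrank with score. It was 67.2% (63.0 to 71.1) of the 545 peaks with scores from 2 to 3, and 52.8% (51.5 to 54.2) of the 5313 peaks from 5 to 10. From 10 to 15 it was 34.3%, and from 25 to 30 it was 12.9% (10.98 to 14.9) of 1159 peaks. The share went on falling above the ceiling, to 9.78% from 30 to 40 and 3.92% at 60 or more, with no step at 30. Overlap with MYC alone followed another course: it was 27.9% at scores from 2 to 3, was highest at 49.7% from 15 to 20, and was 11.3% at 60 or more, where 84.7% of peaks had a GFP peak in A498 or in parental cells.

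**Figure D1:**
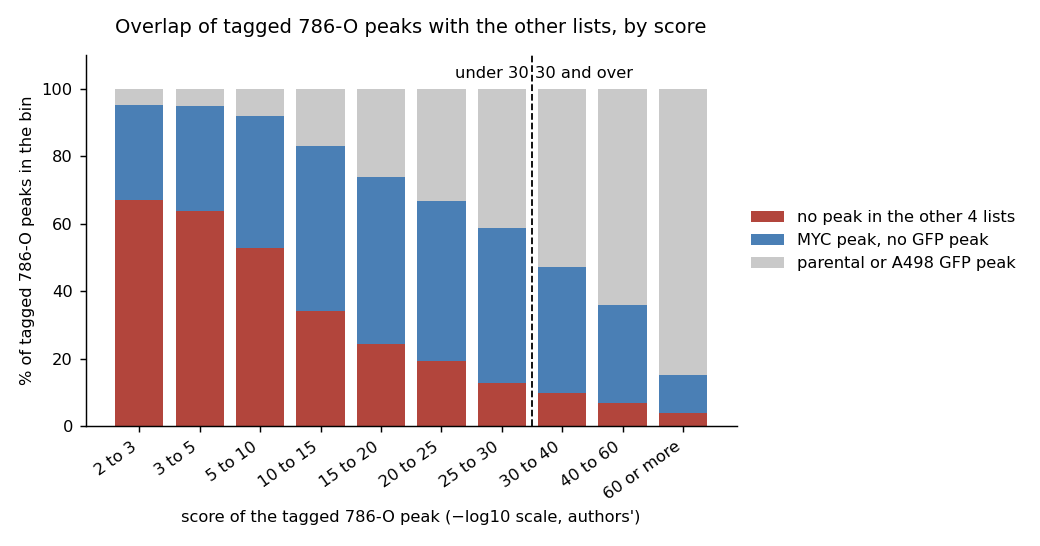
Share of tagged 786-O peaks (vertical axis, percent) by score bin (horizontal axis) that had no peak in the other 4 lists (red), a MYC peak but no other GFP peak (blue), or a GFP peak in A498 or parental cells (grey). The red share falls from 67.2% in the lowest bin to 3.92% in the highest, with no step at the dashed line at 30.

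The 10 sites of highest score were just below the ceiling, between 29.6 and 29.9, with ranks from 4266 to 4332 in the tagged 786-O list. The first, chr1:207142472-207142760, scored 29.9 and lay 13.0 kb from the nearest MYC peak and 44.8 kb from the nearest other tagged 786-O peak. The second, chr17:19266250-19266530, lay 73 bp from a MYC peak and 214 bp from another tagged 786-O peak. Others on chromosome 17 lay at chr17:17399691-17400418, chr17:39823216-39823591 and chr17:65072417-65072702. The site chr2:176971330-176972134 was 805 bp wide, the broadest of the 10, and belonged to a run of sites described below. The remaining sites were chr16:11226994-11227523, chr3:143183832-143184121, chr8:130720120-130720608 and chr8:27695168-27695497. The chromosome 3 site was the most remote of the 10, with its nearest peak of any list 258 kb away. The 10 strongest thus held both sites beside other peaks and sites that stood alone.

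Just outside the ceiling, the 5 lowest peaks that met the overlap condition scored between 30.01 and 30.05. They lay at chr9:93862300-93862557, chr2:57987042-57987266, chr17:61600319-61600774, chrX:52926349-52926799 and chr16:12153096-12153324, with widths of 258, 225, 456, 451 and 229 bp. The 5 lowest-scoring sites had scores from 2.01 to 2.04, the lowest, on chromosome 7, being the last of the tagged 786-O list at rank 20034. They were chr7:75947404-75947680, chr2:223183748-223184055, chr22:31556524-31556765, chr1:38019435-38019790 and chr10:3928894-3929071. Of these 5, those on chromosomes 2 and 22 lay within 1 kb of another tagged 786-O peak, at 561 and 324 bp. The chromosome 1 site lay 0.13 kb from its nearest peak of any list. That was a parental A498 peak, as the other lists had none closer than 38.7 kb.

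The weak sites without MYC were narrow. Their median width was 233 bp (quartiles 185 and 318), against 410 bp (267 and 630) for weak sites with MYC. The 304 stronger 786-O-only peaks without MYC, with scores of 30 or more, had a median of 392 bp. Over all tagged 786-O peaks of any score the median was 393 bp. In all, the weak sites without MYC covered 1810 kb, and those with MYC 3281 kb. The smallest width in the tagged 786-O list was 157 bp, and 342 of the sites (5.29%, 4.75 to 5.86) had exactly this width, against 66 (0.988%, 0.765 to 1.26) of the weak sites with MYC. Over all tagged 786-O peaks, 428 (2.14%, 1.94 to 2.35) had the smallest width. Width comes from the same library as the score, and it is given as a description.

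The sites were also narrower than weak sites with MYC within each score bin, by the median. Why the widths differed was not tested. At scores from 5 to 10 the median width was 210 bp without MYC and 303 bp with MYC. From 10 to 15 it was 258 bp without and 463 bp with MYC, and from 25 to 30 it was 365 bp without and 668 bp with MYC. In the lowest bin, from 2 to 3, the medians were closest, at 222 bp without MYC and 258 bp with MYC. A wider peak is more likely to touch another by its size alone, so MYC was also assigned by a window of fixed size, as a MYC peak within 200 bp of the midpoint. With this rule, which was chosen after the data were seen, the medians from 10 to 15 were 261 bp without and 455 bp with MYC, and from 25 to 30 they were 380 bp without and 664 bp with MYC.

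**Figure D2:**
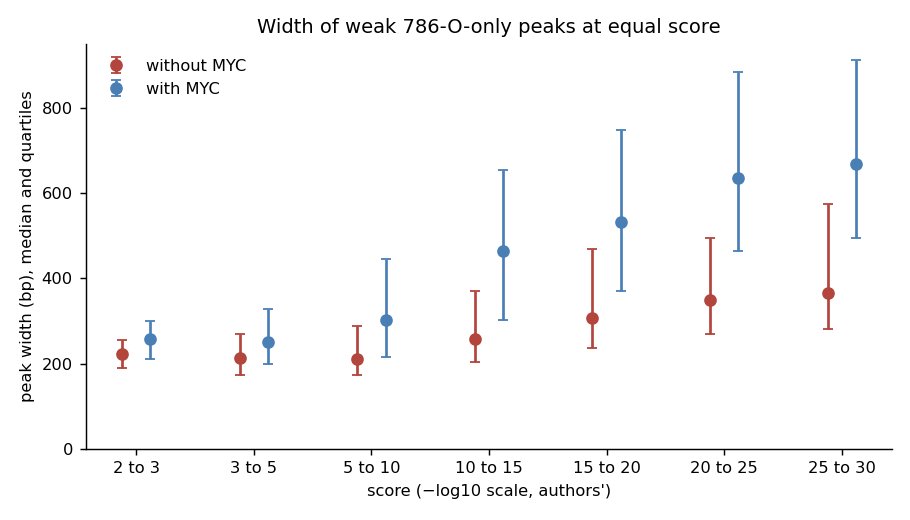
Width (vertical axis, bp) of weak 786-O-only peaks without MYC (red, left of each pair) and with MYC (blue) in 7 score bins (horizontal axis). Points are medians and bars the quartiles. The medians without MYC lie between 210 and 365 bp and are below those with MYC in each bin.

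The 5 widest sites ranged from 1387 to 1457 bp and had middling scores, from 11.0 to 24.4. They lay at chr12:122241447-122242903, chr2:237075904-237077359, chr7:126892782-126894216, chr16:89252269-89253678 and chr1:44115334-44116720. The widest, on chromosome 12, lay 427 bp from another tagged 786-O peak, while for those on chromosomes 7 and 1 the nearest peak of any list was 88.4 kb and 56.1 kb away.

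Most of the sites had no other peak close by, as did most tagged 786-O peaks once peaks that overlap them are left aside. No peak of any list lay within 1 kb of 4822 sites (74.5%, 73.4 to 75.6), none lay within 10 kb of 3256 (50.3%), and none lay within 100 kb of 602 (9.30%, 8.61 to 10.04). For weak sites with MYC, leaving aside the MYC peaks they overlap, the same shares were 68.3%, 44.6% and 5.51% (4.98 to 6.09). Over all tagged 786-O peaks they were 71.1%, 47.6% and 6.97%, again leaving aside peaks of other lists that they overlap. Of all tagged 786-O peaks, 60.6% overlapped a MYC peak, so many of those counted here had a peak directly on them. For the 304 stronger 786-O-only peaks without MYC the shares were 80.9%, 54.9% and 5.92% (3.55 to 9.20). The 5 most remote sites were chr14:84023118-84023300, chr13:54644077-54644244, chr4:32033014-32033210, chr4:30721381-30721542 and chrX:125715145-125715335. The first of them was 1888 kb from the nearest peak of any list, and the chromosome 4 sites were each other's nearest peak at 1311 kb. All 5 were narrow, from 162 to 197 bp, with scores from 2.87 to 7.80.

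A smaller part lay beside MYC peaks without touching them. A MYC peak lay within 1 kb of 1139 sites (17.6%, 16.7 to 18.6) and within 200 bp of 360 (5.56%, 5.02 to 6.15). Among the weak sites with MYC, a further MYC peak that they did not overlap lay within 1 kb of 16.2% (15.3 to 17.1) and within 200 bp of 2.89% (2.50 to 3.32). These shares are not like for like. Sites with MYC were chosen for overlapping a MYC peak, and only a further one is counted for them. Over all tagged 786-O peaks, a MYC peak that they did not overlap lay within 1 kb of 15.7% (15.2 to 16.2). One lay within 200 bp of 3.88% (3.62 to 4.16), and MYC peaks that they overlap are again left aside. The sites nearest to MYC were chr17:42264362-42264558, chr15:74666048-74666252, chr22:39714296-39714458, chrX:117480018-117480755 and chr8:42248919-42249147, with gaps of 0, 1, 1, 3 and 3 bp, where 0 means that the peaks touch without a shared base. These were set apart from MYC by the overlap rule alone. The MYC peaks beside the sites were of ordinary strength, with 47.0% (44.0 to 50.0) of 1102 in the upper 50% of the MYC list.

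Sites beside MYC mostly lay beside another tagged 786-O peak too. Of the 1139 sites with a MYC peak within 1 kb, 833 (73.1%, 70.5 to 75.7) also had another tagged 786-O peak within 1 kb. Of the 5331 sites with no MYC peak that near, 473 (8.87%, 8.12 to 9.67) did. MYC peaks and tagged peaks often coincided in these lists. A tagged 786-O peak overlapped 60.9% of all MYC peaks, and 68.1% (65.3 to 70.9) of the 1102 MYC peaks beside the sites. Over all sites, 1306 (20.2%, 19.2 to 21.2) had a tagged neighbour within 1 kb, against 25.5% (24.4 to 26.5) of the weak sites with MYC. Of all tagged 786-O peaks, 22.9% (22.3 to 23.5) had such a neighbour. The median score of that neighbour was 13.6 for the sites and 10.9 for the weak sites with MYC; the sites themselves were held under 30 and their neighbours were not, so these are descriptions. The neighbour overlapped a MYC peak in 60.7% (58.0 to 63.4) of cases, against 74.5% (72.4 to 76.6) of the neighbours of weak sites with MYC and 60.6% of all tagged 786-O peaks. It was itself a weak site without MYC in 33.5% (31.0 to 36.2) of cases, close to the 32.3% that these sites make up of all tagged 786-O peaks. Sites with a neighbour had a median score of 7.30, and those without had 7.42.

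Peaks of the other GFP lists were seldom close. A tagged A498 peak lay within 1 kb of 260 sites (4.02%, 3.55 to 4.53), against 4.21% (3.74 to 4.72) of weak sites with MYC. A parental 786-O peak did so at 173 sites (2.67%, 2.29 to 3.10), against 3.19% (2.78 to 3.64), with overlapping intervals in both cases. Parental A498 peaks lay within 1 kb of 50 sites (0.773%, 0.574 to 1.02), against 24 of the weak sites with MYC (0.359%, 0.230 to 0.534). Over all tagged 786-O peaks the shares were higher than for the sites in each case. They were 4.96% for tagged A498, 4.36% for parental 786-O and 2.30% for parental A498, counting only peaks not overlapped. In 41 bins of 1 Mb at least 1 of the lines had 10 or more parental GFP peaks. Of the sites, 180 (2.78%, 2.40 to 3.21) lay in those bins, against 3.28% (2.87 to 3.73) of the weak sites with MYC. Over all tagged 786-O peaks it was 5.06% (4.76 to 5.37). Both kinds of weak site were chosen to overlap no parental peak, so neither can hold a site that touches one. Background in tagged cells that stayed below the calling threshold in the parental libraries cannot be seen in these lists.

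**Figure D3:**
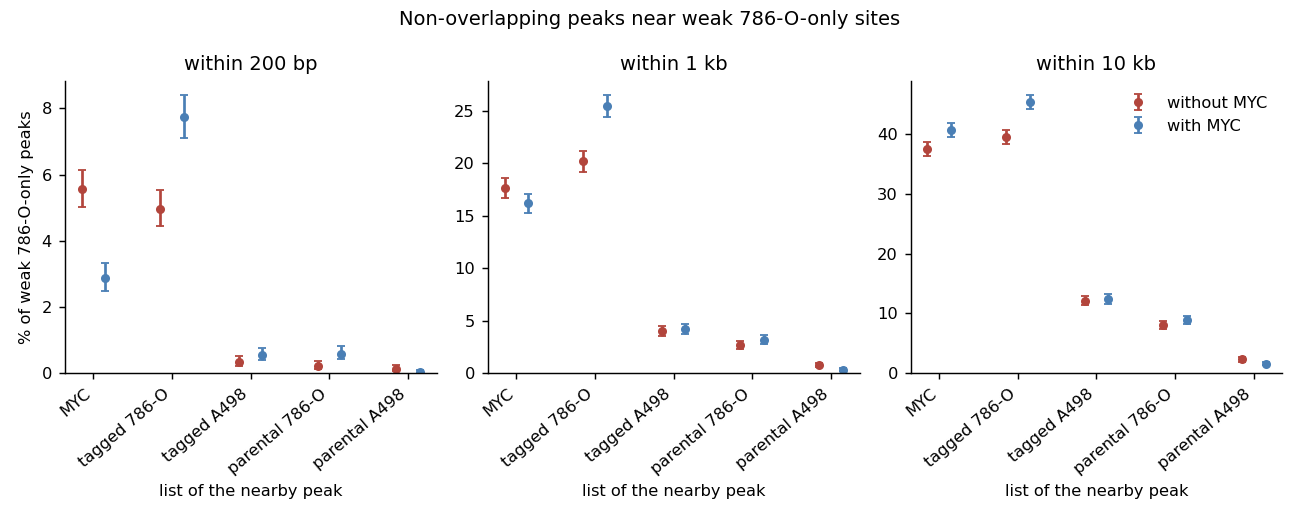
Share (vertical axis, percent) of weak 786-O-only peaks without MYC (red, left of each pair) and with MYC (blue) that had a non-overlapping peak of each list (horizontal axis) within 200 bp, 1 kb or 10 kb. Bars are exact 95% binomial intervals. For tagged 786-O peaks the red share lies below the blue in each panel. For MYC the shares are not like for like, since blue sites overlap a MYC peak by choice and only a further one is counted.

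Among the sites themselves, a MYC peak close by was somewhat less frequent at higher scores. A MYC peak lay within 1 kb of 20.8% (16.7 to 25.3) of sites scoring 2 to 3, 19.5% (18.1 to 21.0) of those scoring 5 to 10, 12.8% (10.02 to 16.1) of those scoring 15 to 20 and 14.1% (8.94 to 20.7) of those scoring 25 to 30. A tagged A498 peak lay within 1 kb of 3.55% to 4.42% of sites in the bins below 15, and of 1 of the 149 sites (0.671%, 0.0170 to 3.68) scoring 25 to 30. The minimum width was found in 10.1% of sites scoring 3 to 5 and in none of those scoring 20 or more.

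The sites were spread over the genome, with 6449 on chromosomes 1 to 22 and X and 21 on chromosome Y or unplaced sequence. They occupied 2101 bins of 1 Mb, against 1832 for the weak sites with MYC. These counts are not like for like, since sites with MYC were chosen for overlapping a MYC peak. Of the sites, 257 (3.97%, 3.51 to 4.48) lay in a 1 Mb bin without any MYC peak. The same share was not computed for other tagged peaks. Chromosome 1 held the most, 662 sites (10.2%). The chromosome was not used in the choice, and the share of weak 786-O-only peaks that lacked MYC differed between chromosomes. It was 60.4% (56.8 to 63.9) of 742 peaks on chromosome 7 and 57.1% (52.7 to 61.3) of 531 on chromosome 8, against 49.2% (48.4 to 50.1) over all. It was lowest on chromosome 22, with 38.8% (33.6 to 44.2) of 340, and on chromosome 17, with 40.3% (36.8 to 43.8) of 760. Chromosome 7 held 6.92% (6.32 to 7.57) of the sites without MYC, against 4.40% (3.92 to 4.92) of those with MYC, and 5.01% of all MYC peaks.

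The differences varied with score. Among weak 786-O-only peaks scoring under 10, 74.0% (69.7 to 78.0) lacked MYC on chromosome 7, against 60.9% (59.8 to 62.0) over all chromosomes. Among those scoring 10 to 30 it was 39.9% (34.2 to 45.7) on chromosome 7, an interval that holds the 34.7% found over all. For chromosome 17 the values were 49.0% (44.0 to 54.0) under 10 and 30.8% (26.1 to 35.8) from 10, and for chromosome 22 they were 49.5% (42.1 to 56.8) and 25.7% (18.9 to 33.4). In alternatives added after the data were seen, the share on chromosome 7 was 60.4% (56.8 to 63.9) with MYC assigned from the midpoint, and 60.1% (56.4 to 63.8) without the bin from 27 to 28 Mb that holds the fullest runs. When a shared peak had to cover 50% of both, the share without MYC was 69.2% (65.95 to 72.3) on chromosome 7, 65.3% (62.0 to 68.5) on chromosome 17 and 63.0% (57.9 to 67.9) on chromosome 22, and each interval held the 66.9% over all. Under that rule the interval lay above the value over all on chromosomes 8 (71.5%, 67.7 to 75.1) and 14 (73.2%, 68.7 to 77.4), and below it on chromosome 16 (62.2%, 58.2 to 66.1).

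**Figure D4:**
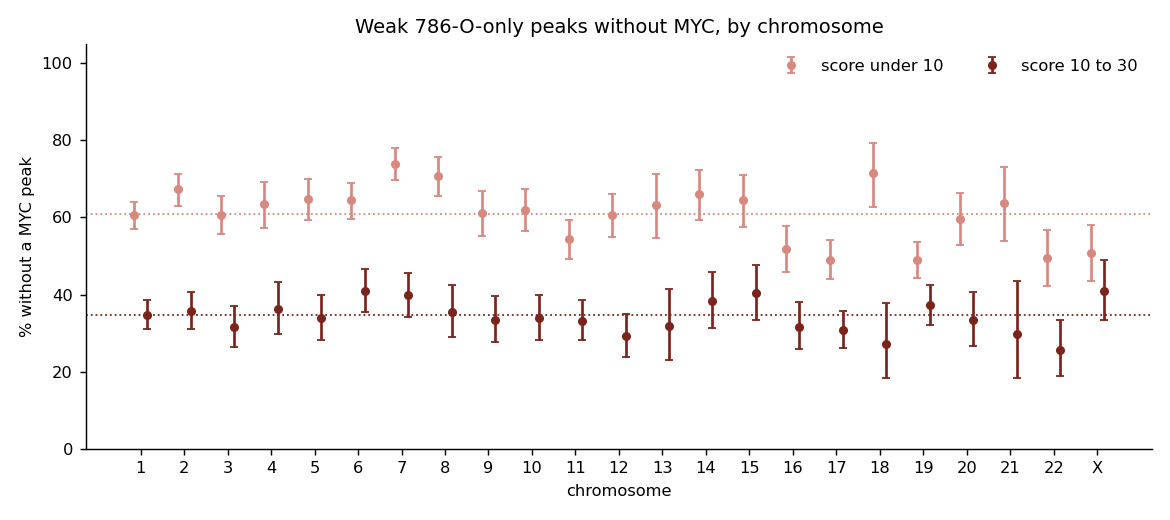
Share of weak 786-O-only peaks without a MYC peak (vertical axis, percent) on each chromosome (horizontal axis), for scores under 10 (light) and from 10 to 30 (dark). Bars are exact 95% binomial intervals and dotted lines the shares over all chromosomes, 60.9% and 34.7%. The light intervals of chromosomes 2, 7, 8 and 18 lie wholly above the upper line, and those of 11, 16, 17, 19, 22 and X wholly below it.

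The share without MYC also went with how many strong tagged 786-O peaks lay around. In 1 Mb bins with no tagged 786-O peak of score 30 or more, 56.5% (54.5 to 58.6) of 2309 weak 786-O-only peaks lacked MYC. In bins with 3 to 4 such peaks it was 46.5% (44.7 to 48.3), and in bins with 9 to 20 it was 35.5% (31.9 to 39.1) of 705. The order held on both sides of a score of 10: under it the share was 68.0% (65.5 to 70.5) in bins with no strong peak and 44.7% (39.4 to 50.1) in the fullest bins, and from 10 up it was 39.5% (36.3 to 42.7) and 26.4% (21.9 to 31.3). Weak sites without MYC thus made up a larger share of weak 786-O-only peaks in bins with fewer strong tagged 786-O peaks. The density of MYC peaks in the bins was not accounted for, and the rule of 50% shared cover was not applied here.

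The fullest 1 Mb bins differed between both kinds of weak site. The bin of chromosome 6 that begins at 28 Mb was first, with 24 weak sites without and 7 with MYC. The bin of chromosome 7 that begins at 27 Mb had 21 without and 11 with MYC. Then came the bins of chromosome 6 at 26 Mb (20 without, 3 with), chromosome 19 at 12 Mb (19 without, 13 with) and chromosome 6 at 27 Mb (18 without, 6 with). In this order, the 5 bins held 40, 43, 53, 41 and 38 tagged 786-O peaks of any kind. Over the whole list, weak sites without MYC were 32.3% of the tagged 786-O peaks. The adjoining bins of chromosome 6 thus took 3 of the 5 places. The bin fullest in weak sites with MYC was chromosome 19 from 1 to 2 Mb, with 13 sites without and 32 with MYC. It held 67 tagged 786-O peaks and 73 MYC peaks.

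Sites without MYC were less often strung together than those with MYC, and each kind had a few long strings. Taking sites with gaps under 10 kb as a run, 1166 (18.0%, 17.1 to 18.98) were in runs of 2 or more, against 24.4% (23.4 to 25.4) of the weak sites with MYC. Runs of 3 or more numbered 66 without and 113 with MYC. Runs of 5 or more numbered 11 without and 8 with MYC, and the longest held 10 sites without and 7 with MYC. Runs over all tagged 786-O peaks are not given here.

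The fullest run lay at chr7:27137688-27169238, with 10 sites in 31.6 kb. Its scores ranged from 4.64 to 28.8 with a median of 6.35. The highest was at 27163729 to 27164173, followed by 27141599 to 27142016 with 22.97 and 27154867 to 27155492 with 15.3. Within its span the lists also held 4 other tagged 786-O peaks, of which 3 were weak sites with MYC, together with 4 MYC peaks and 1 tagged A498 peak, and no parental peak. The second run lay close by on the same chromosome, at 27187479 to 27207038, with 8 sites in 19.6 kb and scores from 3.08 to 18.6. The highest there was the first, at 27187479 to 27187981. That span held 3 other tagged 786-O peaks, 1 MYC peak and 1 tagged A498 peak.

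The third run was of another kind. It lay at chr1:43379138-43418295, with 7 sites in 39.2 kb whose scores were all low and alike, from 3.58 to 5.55. Around and between them were 4 other tagged 786-O peaks, 5 MYC peaks and 1 parental 786-O peak. Its highest site, at 43402881 to 43403228, was 348 bp wide. The fourth run lay at chr2:176953073-176972646, with 6 sites in 19.6 kb and scores from 3.17 to 29.9. Every tagged 786-O peak in that span was a weak site without MYC, a single MYC peak lay among them, and neither A498 nor parental cells had a peak there. Its highest site, at 176971330 to 176972134, is also among the 10 of highest score, and the next, at 176962106 to 176962608, scored 16.6. The fifth run, chr22:46432668-46452392, had 5 sites with scores from 3.40 to 9.23, with 1 other tagged 786-O peak and 2 MYC peaks. It was chosen among 7 runs of 5 sites as the longest.

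**Figure D5:**
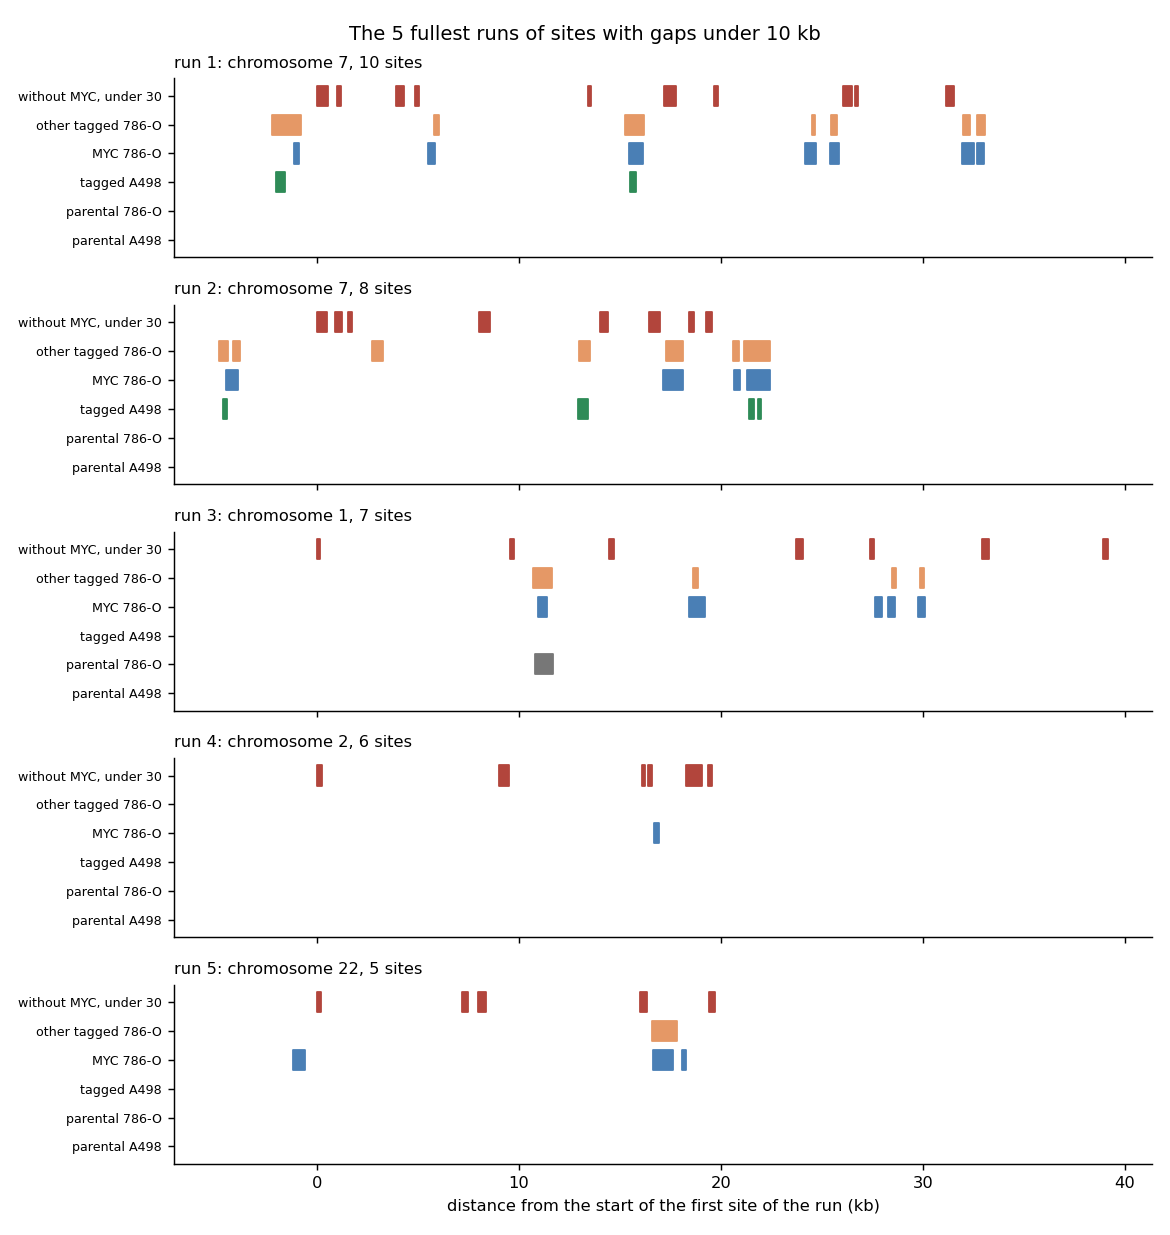
The 5 fullest runs of weak sites without MYC (red), drawn to scale by distance from the start of the first site (horizontal axis, kb), with the other tagged 786-O peaks (orange), MYC (blue), tagged A498 (green) and parental peaks (grey) on separate rows. The fourth run has no other tagged 786-O peak and a single MYC peak, and in the third run evenly low sites lie among 5 MYC peaks.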

How the data were processed

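The submitters' processing notes name BWA, MACS2 and hg19, and their roles, versions and settings are not stated there. The deposited lists have 5 columns without headers, and each library was called against 1 control library, per the deposited peak names, which give MYC and parental 786-O a common control. The deposited score was read as a −log10 of a p or q value, since each list begins just above 2, and which it is was not stated. Scores were not compared in size between lists. No read counts are given, so the depth behind a peak is unknown. Of the 9 samples, 4 inputs have no list.

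Overlap meant 1 shared base. Computation used scipy 1.17.1, numpy 2.4.6 and pandas 2.3.3 under Python 3.11.15, figures used matplotlib 3.10.9, and the overlap and distance rules were tested on simulated data. With 1 library per group no test was run. The sites, classes and lists were chosen with earlier results of these data known. Sites named are the 10 of highest score, the 5 lowest, widest, nearest to MYC, most remote and just outside the ceiling, and the 5 fullest runs, with ties broken by width and position. Other sites named are members of these runs. Planned work on gene lists, promoters and motifs was not done, since it depends on hg19 references that were not used here.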

Additional observations from a re-analysis of the deposited data

How the results depend on the processing

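Of 42 values recomputed under alternatives that could move them, 21 stayed within 1.5 times (counts) or within the 95% interval (shares and the median width), and 21 left it. The count of 6470 sites was 9835 with a 50% reciprocal overlap and 9929 with the upper 50% of each excluding list. The share of weak tagged peaks (41.0%) was 62.3% and 62.9% under these, 35.5% when peaks within 500 bp also excluded, 46.0% with a ceiling of 20, 38.2% with a ceiling of 40 and 36.5% at scores of at least 5. The reciprocal rule keeps peaks that touch another in part, and with it the share near MYC was 44.0%, near tagged A498 7.89%, near parental 786-O 6.25%, near another tagged 786-O peak 25.3%, in dense parental bins 3.34%, on chromosome 7 5.96%, at the minimum width 4.08%, and the median width 257 bp. At 10 kb the shares near MYC, tagged A498 and tagged 786-O peaks were 37.4%, 12.1% and 39.4%. At scores of at least 5 the minimum width was found in 3.94% and the median width was 240 bp. Leaving out unplaced sequence moved none of the values out of its interval. The widest 1% of tagged 786-O peaks held 0 of the sites, so leaving it out could move none of the 8 values recomputed, which are not counted above. The midpoint rule and the removal of the chromosome 7 bin were chosen after seeing the data. The annotation and motif alternatives were not run. No paired analysis was possible because each group is 1 library.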

Other observations

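Scores were repeated among the weak sites without MYC, as over the whole tagged 786-O list, where 20034 peaks had 7890 distinct scores. The 6470 sites had 2684 distinct scores, and the 6678 weak sites with MYC had 2880. Among the 304 stronger 786-O-only peaks without MYC, 278 scores were distinct. The sets differ in size, so these counts are not like for like. These stronger peaks had a MYC peak within 1 kb in 10.9% (7.59 to 14.9) of cases and another tagged 786-O peak within 1 kb in 13.8% (10.1 to 18.2), against 17.6% and 20.2% of the weak sites without MYC. A tagged A498 peak lay within 1 kb of 5 of them (1.64%, 0.536 to 3.80), against 4.02% of the weak sites without MYC. The 786-O-only peaks with MYC also had lower shares when stronger, leaving aside the MYC peaks they overlap. For MYC it was 11.4% of stronger against 16.2% of weak ones. For tagged 786-O it was 16.8% against 25.5%, and for tagged A498 2.26% against 4.21%.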
